A study of Mus musculus with 4 samples.

Results

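The TNF superfamily ligands and receptors were examined for chromatin accessibility in cultured mouse myeloid progenitors and monocytes. The members were the protein-coding genes whose symbol begins with Tnfsf or Tnfrsf followed by a number, which gave 31 of 21887 protein-coding genes, 11 ligands and 20 receptors. Family members under other names (Tnf, Fas, Cd40 and others) are outside this rule and are described as a separate list. The locus of a member was its gene body with 10 kb on either side, in mm10 coordinates with gene positions from RefSeq GRCm38.p6. The 31 loci together covered 1265 kb and held 201 of the 120423 accessible regions of the series, 13 of which lay in the loci of 2 members.

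Omni-ATAC-seq, in which a transposase cuts open DNA and adds sequencing adapters, had been performed on 4 libraries, 1 per group. Of the wild-type (WT) libraries, 1 came from monocytes and 1 from progenitors labelled common myeloid and granulocyte-monocyte (CMP/GMP), and the same pair of cell types had been prepared from Cxcr3-/- mice. Series of 4 values below follow this order: WT progenitors, Cxcr3-/- progenitors, WT monocytes, Cxcr3-/- monocytes. All were cultured bone marrow cells of C57BL/6J background, and Cxcr3 encodes a chemokine receptor. The labels give hepatocellular carcinoma as the disease state of all 4 libraries, and the design text speaks of mice given diethylnitrosamine and tetrachloromethane but of in vitro culture for the ATAC-seq cells. The labels do not state the age, sex or number of donor animals or the kind of Cxcr3 knockout, nor whether the libraries come from separate animals. Each group is a single library, so no group has replicates. No test was run, also not one that would take the genotypes as replicates of a cell type. Every interval printed covers counting error only.

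TNF superfamily ligands are mostly membrane-bound trimers, some of them released by cleavage, that bind receptors on neighbouring cells. The receptors signal through TRAF adaptors to NF-kB, and those with a cytoplasmic death domain can also start cell death through Fadd and caspase 8. In myeloid cells the family is known for monocyte and macrophage activation (Tnfrsf1a, Tnfrsf1b), osteoclast formation from monocytic precursors (Tnfsf11 acting on Tnfrsf11a), and supply of B cell survival factors (Tnfsf13, Tnfsf13b).

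The promoters of Tnfsf18, Tnfrsf1b and Tnfsf14 illustrate the kinds of pattern found. Their sequences from RefSeq (GRCm38.p6) show the 250 bases before the transcription start, 5′ to 3′ on the coding strand. Among the 24 members with a promoter given in RefSeq, that of Tnfsf18 was the only one called in both monocyte libraries and in neither CMP/GMP library. Its window is chr1:161494407-161494656, plus strand. The Tnfrsf1b window (chr4:145246871-145247120, minus strand) was called in all 4 libraries, while regions inside the gene differed between cell types. The Tnfsf14 window (chr17:57194182-57194431, minus strand) was called in all 4 and lies near an upstream region that was higher in monocytes. Capitals mark letters that match GAGGAA (the core of PU.1 sites) on either strand, TGANTCA (AP-1) or GAAANNGAA (IRF) on either strand. Each printed window holds GAGGAA, but only 9 of the 28 promoter windows of the 24 members do. The windows of Tnfrsf11a and Tnfrsf1a, called in all 4 libraries and not printed, hold no match to any motif searched.
Tnfsf18: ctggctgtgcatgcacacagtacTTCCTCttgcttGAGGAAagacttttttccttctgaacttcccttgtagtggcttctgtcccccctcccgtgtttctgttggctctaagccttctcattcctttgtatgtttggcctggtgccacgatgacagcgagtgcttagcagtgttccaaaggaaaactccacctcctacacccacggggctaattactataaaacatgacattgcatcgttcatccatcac
Tnfrsf1b: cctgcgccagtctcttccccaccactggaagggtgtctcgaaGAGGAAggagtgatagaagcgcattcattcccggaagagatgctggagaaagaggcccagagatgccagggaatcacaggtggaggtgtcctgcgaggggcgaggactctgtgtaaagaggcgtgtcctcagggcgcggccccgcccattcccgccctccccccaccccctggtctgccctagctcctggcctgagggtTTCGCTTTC
Tnfsf14: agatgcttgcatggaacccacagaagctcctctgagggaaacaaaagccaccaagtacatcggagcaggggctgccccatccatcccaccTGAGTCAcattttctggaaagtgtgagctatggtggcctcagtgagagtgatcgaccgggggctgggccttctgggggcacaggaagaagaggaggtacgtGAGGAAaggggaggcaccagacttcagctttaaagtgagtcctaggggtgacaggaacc

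The 4 deposited lists held 69521, 80171, 98257 and 78244 intervals. Signal is given as the number of tags stacked at the summit of an interval, recovered from the deposited values, with a median of 21 to 29 tags per library. The highest region of a member is the one with the most tags after scaling for depth. Progenitor and granulocyte markers (Kit, Cd34, Flt3, Myb, Gfi1, Mpo, Elane, Prtn3, Ctsg) held 55, 56, 48 and 41 intervals. Monocyte and macrophage markers held 52, 58, 72 and 60, against list lengths that also differ. The median log2 ratio of monocytes over CMP/GMP was −1.13 in WT and −1.04 in Cxcr3-/- at the progenitor and granulocyte list and 0.07 and 0.08 at the monocyte and macrophage list, so the signal at the latter differed little between the labelled cell types. Among markers of other cells, the T and NK cell genes Cd3e, Cd8a and Ncr1 had no region in any library. The rest of that list, Lck, Cd4, Klrb1c, Cd3g and Cd3d, had regions in all 4 libraries. Mast cell and basophil markers held 6 and 8 intervals in CMP/GMP and 2 and 1 in monocytes, T and NK cell markers 13 to 22, B cell markers 16 to 20, erythroid and megakaryocyte markers 16 to 21, and stromal and endothelial markers 24 to 34. Their part in the results was not tested. In bulk libraries, fewer cells with an open region and less opening per cell cannot be told apart.

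Every member locus held at least 1 accessible region. The number per locus ranged from 1 to 18 with a median of 7, against a median of 4 over all protein-coding loci, of which 19.6% held none. Median gene length was 20.2 kb for members and 17.2 kb for all genes. Per 100 kb, member loci held 9.09, 10.83, 13.04 and 10.98 intervals, against 4.03, 4.65, 5.72 and 4.56 in all protein-coding loci. The member loci were thus about equally dense relative to all loci in the 4 libraries. They held 0.165%, 0.171%, 0.168% and 0.178% of the 4 lists.

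**Figure D1:**
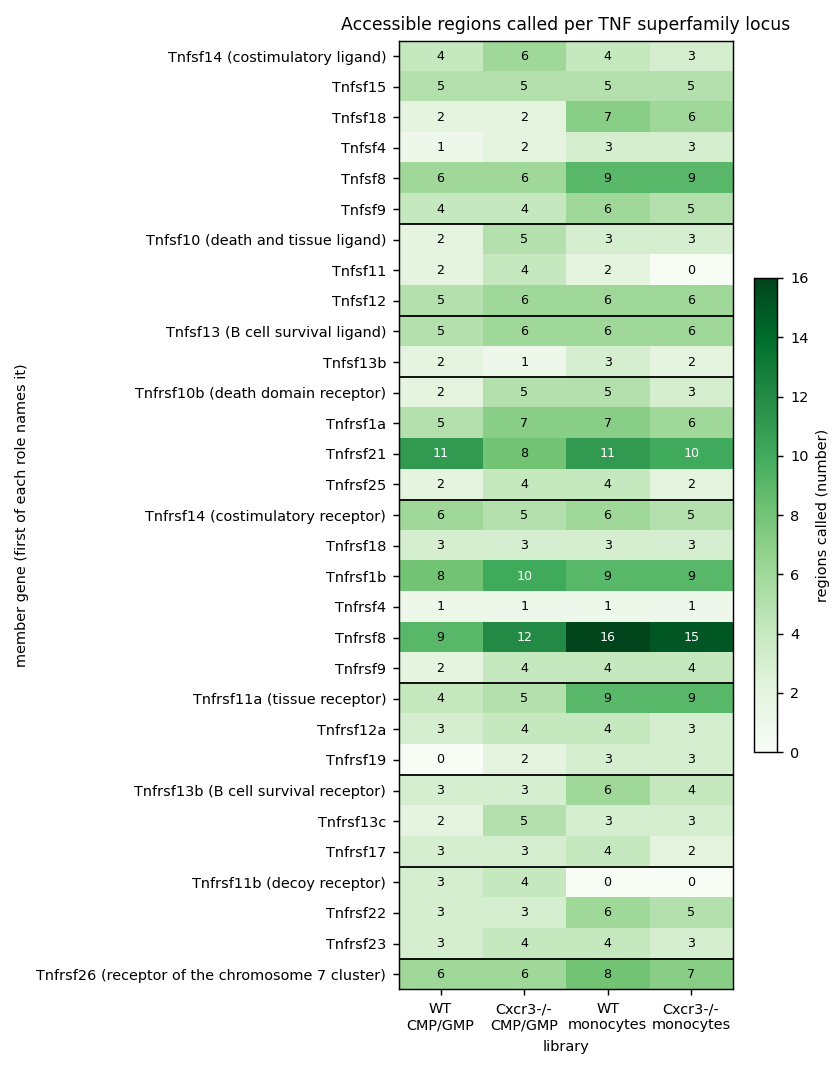
Number of accessible regions called in each member locus (rows, grouped by role) in each of the 4 libraries (columns). Tnfrsf8 had the most, 9 and 12 in CMP/GMP and 16 and 15 in monocytes, and Tnfrsf11b had 3 and 4 in CMP/GMP and 0 in both monocyte libraries.

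Of the 201 member regions, 76 (37.8%) were called in all 4 libraries, against 38.7% of the 88427 regions in any protein-coding locus. Another 33 (16.4%) were monocyte-only, meaning called in both monocyte libraries and in neither CMP/GMP library, against 13.8% of all locus regions. The reverse pattern, CMP/GMP-only, was found for 16 (7.96%) against 6.68%. These shares lie near the background and are given as a description. The ligand loci held 64 regions, of which 14 (21.9%) were monocyte-only and 5 CMP/GMP-only, and the receptor loci held 137, of which 19 (13.9%) were monocyte-only and 11 CMP/GMP-only. A monocyte-only region lay in the locus of 21 members and a CMP/GMP-only region in that of 13, 10 of which had both. Of all protein-coding loci, which hold fewer regions (median 4 against 7), 34.2% held a monocyte-only region, 22.6% a CMP/GMP-only one and 11.4% both.

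A missing call is weak evidence where few tags would be due, since the lowest called summits held 7, 9, 5 and 6 tags. For each such region the tags due under equal signal were therefore computed from the library scaling factors (0.791, 1.29, 1.114 and 0.879). At 11 monocyte-only regions (5.47% of member regions, background 3.6%) equal signal would have reached the median summit of both CMP/GMP lists, 21 and 29 tags. At 5 CMP/GMP-only regions (2.49%, background 1.68%) it would have reached the median of 21 tags of both monocyte lists. This criterion was chosen after the values were seen. It uses tags alone, although background density differed, at 135, 194, 95.6 and 97.2 tags per 10 kb. The effect of background on the missing calls was not tested.

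Tnfrsf1b encodes TNFR2, the TNF receptor without a death domain. A region in its body (chr4:145221981-145222630) held 117 tags in WT monocytes and 108 in Cxcr3-/- monocytes and was called in neither CMP/GMP library, where equal signal would have given 83.1 and 158 tags. A second body region (chr4:145229023-145229455) held 62 and 49 tags in monocytes, also without a call in CMP/GMP. The first of these is the monocyte-only member region with the most tags. The promoter region (chr4:145246159-145247121) was open in all 4 libraries, with 41 and 66 tags in the progenitor libraries and 53 and 43 in the monocyte libraries. The strongest region of the locus (chr4:145240724-145241360) held 110, 161, 152 and 142 tags in the same order. The promoter differed little between cell types, with log2 ratios of monocytes over CMP/GMP of −0.12 in WT and −0.07 in Cxcr3-/-. Beyond the end of the gene the order was reversed. A region 9466 bp outside (chr4:145202732-145202902) held 18 and 34 tags in WT and Cxcr3-/- CMP/GMP and was CMP/GMP-only. A region 774 bp outside (chr4:145211103-145211594) held 44 and 60 tags in CMP/GMP, was not called in WT monocytes and held 9 tags in Cxcr3-/- monocytes.

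Tnfrsf1a encodes TNFR1, the death domain receptor of TNF. A region in its body (chr6:125354702-125355001) was monocyte-only, with 40 tags in WT and 30 in Cxcr3-/- monocytes. A region 9101 bp before the gene, in the body of Scnn1a (chr6:125340357-125340622), was CMP/GMP-only, with 21 and 48 tags in WT and Cxcr3-/-. The Tnfrsf1a promoter region (chr6:125349488-125349972) held 29, 68, 41 and 38 tags. The strongest region of the locus, 5146 bp outside and in the body of Plekhg6 (chr6:125367629-125368119), held 57, 103, 105 and 90. Both TNF receptors thus had promoters called in all 4 libraries and distal regions called in 1 cell type.

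**Figure D2:**
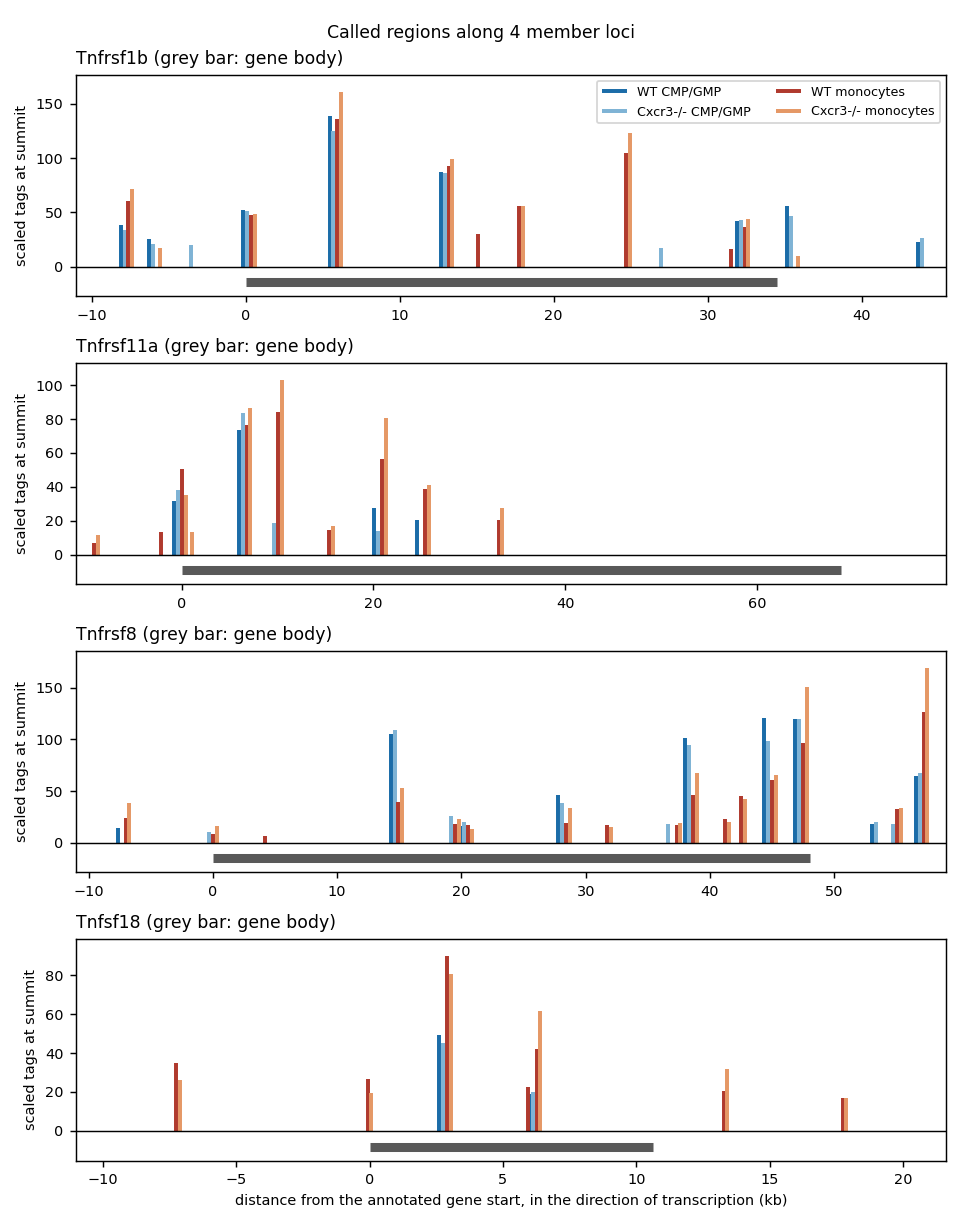
Scaled tags at the summit of each called region (bars, side by side for the 4 libraries) against distance from the gene start in the direction of transcription, for 4 member loci. In Tnfrsf1b the monocyte bars near 18 and 25 kb stand without CMP/GMP bars, and the bars near the start are of similar height in all 4 libraries.

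Tnfrsf11a encodes RANK, the receptor of Tnfsf11 (RANKL), the signal for osteoclast formation. It had 4 and 5 regions called in WT and Cxcr3-/- CMP/GMP and 9 in each monocyte library. The promoter region (chr1:105780155-105780835) held 25, 49, 56 and 31 tags, and the body region at chr1:105787023-105787466 held 58, 108, 85 and 76, so both were open in progenitors and monocytes. Farther into the gene the cell types separated. The region at chr1:105790210-105790775 was not called in WT CMP/GMP, had 24 tags in the Cxcr3-/- progenitors, and had 94 and 91 in the monocyte libraries. The next, at chr1:105801152-105801610, held 22, 18, 63 and 71 tags, with log2 ratios of monocytes over CMP/GMP of 1.02 (95% counting interval 0.30 to 1.80) in WT and 2.53 (1.77 to 3.37) in Cxcr3-/-. Each monocyte library was therefore above both CMP/GMP libraries there, but by the deposited fold the ratios were 0.33 and 1.59, which ends the 2-fold call, since it needs both genotypes. The 3 monocyte-only regions of the locus held 8 and 10, 16 and 15, and 23 and 24 tags in WT and Cxcr3-/- monocytes.

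The ligand gene Tnfsf11 had 2 regions in each WT library, 4 in the Cxcr3-/- progenitors and 0 in the Cxcr3-/- monocytes. All were low. The highest (chr14:78288006-78288265, in the body) held 21, 19 and 11 tags and was not called in Cxcr3-/- monocytes, and the 1 CMP/GMP-only region (chr14:78301025-78301186) held 12 and 15. Its promoter window was called only in Cxcr3-/- CMP/GMP, with 12 tags. Tnfrsf11b encodes osteoprotegerin, the soluble decoy that binds Tnfsf11. It was the only member with no call in either monocyte library, and its 3 CMP/GMP-only regions at the 1 end of the gene (within chr15:54278197-54279220) held 10 to 12 tags in WT and 11 to 13 in Cxcr3-/- CMP/GMP. Equal signal would have given 14.1 to 16.9 tags in WT monocytes and 7.5 to 8.86 in Cxcr3-/- monocytes, where the lowest calls held 5 and 6. The 5th percentile of called summits in Cxcr3-/- monocytes was 9 tags, so the missing calls there are weak evidence. The values also lie below the median of 21 tags of both monocyte lists, so these regions did not meet the criterion above.

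Among the costimulatory ligands, which act on T cells and other lymphocytes, 12 of 43 regions were monocyte-only and 3 CMP/GMP-only, against 13.8% and 6.68% of all locus regions. Tnfsf18 (GITR ligand) had 2 regions in each CMP/GMP library and 7 and 6 in WT and Cxcr3-/- monocytes. Its promoter region (chr1:161494382-161494642), the sequence printed first above, held 30 and 17 tags in WT and Cxcr3-/- monocytes and had no call in CMP/GMP. Equal signal would have given 21.3 and 24.9 tags in WT and Cxcr3-/- CMP/GMP. The latter is below the median summit of 29 tags in that list, so the region did not meet the criterion above. A region 7189 bp before the gene (chr1:161487221-161487468) held 39 and 23, and the other 2 monocyte-only regions held 23 and 28 tags and 19 and 15 tags. In the body, chr1:161497285-161497685 held 39, 58, 100 and 71 tags, and chr1:161500658-161501042 held 15, 26, 47 and 54. The last gave log2 ratios of 1.15 (0.29 to 2.10) in WT and 1.61 (0.91 to 2.34) in Cxcr3-/-. By the deposited fold these were 0.36 and 0.65, so this 2-fold call is lost in both genotypes. Every region called in this locus was thus either monocyte-only, higher in both monocyte libraries, or, for 1 region with 25 tags, called in WT monocytes only.

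Tnfsf14 encodes LIGHT, the ligand of Tnfrsf14 and of the lymphotoxin beta receptor. A region 4091 bp outside the gene (chr17:57198272-57198606), upstream of the promoter printed last above, held 25, 37, 109 and 67 tags. The log2 ratios of monocytes over CMP/GMP were 1.63 (0.99 to 2.32) in WT and 1.41 (0.81 to 2.03) in Cxcr3-/-, while the promoter region (chr17:57193850-57194490, with 88, 140, 89 and 67 tags) gave −0.48 and −0.51. A CMP/GMP-only region 460 bp outside its other end held 13 tags in each CMP/GMP library.

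The remaining costimulatory ligands had from 1 to 3 monocyte-only regions each. Tnfsf4 (OX40 ligand) had a monocyte-only body region (chr1:161406407-161406762) with 45 and 46 tags, the highest of its 3 regions. Tnfsf9 (4-1BB ligand) had one 984 bp outside the gene (chr17:57108742-57108933) with 42 and 20 tags and another with 28 and 20, beside a region open in all 4 libraries (chr17:57112779-57113401, with 58, 110, 90 and 63 tags). Tnfsf8 (CD30 ligand) had 3, with 37 and 29, 30 and 21, and 15 and 9 tags, and its highest region (chr4:63847150-63847763) held 34, 64, 76 and 75. Tnfsf15 (TL1A) had patterns of both kinds, with 2 monocyte-only regions of 18 and 27 and of 27 and 17 tags, 2 CMP/GMP-only regions of 12 and 16 and of 15 and 24, and a highest region of 26, 35, 22 and 16 tags.

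Among the costimulatory receptors, Tnfrsf8 (CD30) had the most regions of all members, 18, and they moved in both directions. Its 4 monocyte-only regions, all in the body, held 50 and 37 tags (chr4:145272751-145272925), 26 and 18, 19 and 17, and 19 and 13. Its highest region (chr4:145257810-145258446, 8686 bp outside, in the space between Tnfrsf8 and Tnfrsf1b) held 51, 87, 142 and 149 tags, with log2 ratios of 0.98 in WT, just under 2-fold, and 1.33 in Cxcr3-/-. In the body, chr4:145300041-145300731 held 83, 140, 44 and 47 tags and was lower in monocytes, with log2 ratios of −1.41 (−1.97 to −0.86) and −1.02 (−1.53 to −0.54). By background tags the WT ratio of this region was −0.42, and by the deposited fold the ratios were −0.82 and −0.64, so its 2-fold call depends on the measure. A CMP/GMP-only region lay 5383 bp outside with 14 and 26 tags.

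Tnfrsf14 (HVEM) had 2 of the 5 CMP/GMP-only regions with enough expected tags, at chr4:154915333-154915632 with 34 and 47 tags and at chr4:154937785-154938079 with 22 and 47. Its monocyte-only body region (chr4:154925896-154926053) held 30 and 25 tags, and its highest region (chr4:154911121-154911680) held 76, 173, 153 and 108. Tnfrsf9 (4-1BB) had 1 monocyte-only region of 11 and 14 tags, 1 CMP/GMP-only region of 20 and 21, and a highest region 5412 bp outside with 71, 129, 95 and 72. Tnfrsf4 (OX40) and Tnfrsf18 (GITR), which are neighbours, showed no region of either kind. The single region in the Tnfrsf4 locus is the Tnfrsf18 promoter region (chr4:156025895-156026551), with 18, 38, 19 and 18 tags, and the highest of Tnfrsf18 held 26, 52, 29 and 25.

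The death domain receptor Tnfrsf21 (DR6) also had regions in both directions within 1 gene. The promoter region (chr17:43016363-43017106) held 67, 115, 80 and 81 tags, while a body region close behind it (chr17:43017448-43017736) held 55, 81, 16 and 16. The log2 ratios of the latter were −2.27 (−3.18 to −1.45) in WT and −1.79 (−2.66 to −1.0) in Cxcr3-/-. Its highest region, chr17:43036150-43036641, held 73, 122, 44 and 42 tags and lay just outside the 2-fold call, at −1.22 and −0.99. Farther on, chr17:43052495-43052799 was monocyte-only with 53 and 46 tags, and a second monocyte-only region held 16 and 18, while a CMP/GMP-only one held 9 and 25. Tnfrsf10b, the TRAIL receptor, had 1 monocyte-only region of 18 and 15 tags and a highest region of 19, 29, 15 and 13. Tnfrsf25 (DR3) had 1 monocyte-only region of 15 and 13 tags and a highest region of 22, 29, 22 and 19. These lay 5054 and 4475 bp outside the gene, in the body of Espn. The Tnfrsf25 promoter region, lower after scaling, held 20, 34 and 10 tags and was not called in Cxcr3-/- monocytes.

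The B cell survival ligands Tnfsf13 (APRIL) and Tnfsf13b (BAFF) are made by myeloid cells, and Tnfsf12 (TWEAK) is the neighbour of Tnfsf13. A region in the body of Tnfsf12, also within the locus of Tnfsf13 (chr11:69692240-69692597), held 14 and 16 tags in the progenitor libraries and 80 and 55 in the monocyte libraries. Its log2 ratios, 2.02 (1.19 to 2.96) in WT and 2.33 (1.51 to 3.24) in Cxcr3-/-, had the largest mean of the member regions with a ratio in both genotypes. A monocyte-only region of 20 and 18 tags lay beside it, and a region in the body of Tnfsf13 (chr11:69682874-69683011) was CMP/GMP-only with 23 and 31 tags. The highest region of the Tnfsf13 locus, with 113, 227, 127 and 91 tags, overlies the promoter of another gene, Eif4a1. For Tnfsf13b the promoter region (chr8:10006322-10007110) was the highest, with 38, 77, 66 and 65 tags and log2 ratios of 0.30 and 0.31, and 1 monocyte-only region held 9 and 8 tags.

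The receptors of these ligands mark B and plasma cells. Tnfrsf17 (BCMA) had the lowest mean ratio of monocytes over CMP/GMP, at a body region (chr16:11317334-11317831) with 73, 108, 22 and 14 tags. The log2 ratios were −2.22 (−2.98 to −1.52) in WT and −2.39 (−3.31 to −1.59) in Cxcr3-/-, with both CMP/GMP libraries above both monocyte libraries. Its promoter window was not called in any library. Tnfrsf13b (TACI) had 1 monocyte-only region of 19 and 18 tags, 5982 bp outside, and a highest region of 23, 35, 26 and 19. Tnfrsf13c (BAFF receptor) had neither kind of region, and its highest held 17, 27, 10 and 11 tags.

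Tnfsf10 (TRAIL) was highest at its promoter (chr3:27316670-27317332), with 42, 70, 35 and 46 tags, and had no region of either kind. Tnfrsf12a (Fn14), the receptor of Tnfsf12, had none either. Its promoter region held 44, 62, 57 and 44 tags, and the highest region of its locus, with 87, 123, 64 and 54, overlies the promoters of Hcfc1r1 and Thoc6. Tnfrsf19 (TROY) had no call in WT CMP/GMP, 1 monocyte-only region of 11 and 14 tags, and a highest region (chr14:61046361-61046753, at 1 end of the gene) that was not called in WT CMP/GMP and held 18, 42 and 25 tags in the other libraries.

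Tnfrsf22, Tnfrsf23 and Tnfrsf26 lie side by side on chromosome 7 and are similar in sequence. How reads that fit several places were treated is not stated in the labels, so their values are uncertain. The highest regions held 49, 63, 95 and 61 tags in Tnfrsf22 and 67, 108, 103 and 74 in Tnfrsf23. The highest of the Tnfrsf26 locus, with 89, 145, 110 and 87, lay 7229 bp outside that gene, in the body of Cars. A monocyte-only region between Tnfrsf26 and Tnfrsf22 held 38 and 17 tags, and a CMP/GMP-only region in Tnfrsf26 held 11 and 15. Tnfrsf23, with the promoter region as its highest, had neither kind.

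Across the loci, the comparison of cell types was quantified at the 49 member regions called in all 4 libraries with a mean of at least 30 tags in both genotypes. Of these, 4 (8.16%, background 5.73%) were at least 2-fold higher in monocytes in both genotypes and 3 (6.12%, background 3.26%) at least 2-fold lower. The 4 higher regions lay at Tnfsf12 with Tnfsf13, Tnfrsf11a, Tnfsf14 and Tnfsf18, and the 3 lower ones at Tnfrsf17, Tnfrsf21 and Tnfrsf8. These are counts of a few regions, and they varied with the settings. The number higher in monocytes was 8 by background tags (background 16.7%), 2 by the deposited fold (2.31%) and 0 with a minimum of 60 tags (3.07%). Among the regions next in order, a Tnfrsf1b region 7569 bp outside held 30, 44, 67 and 63 tags (0.67 and 1.07) and a second Tnfsf8 region held 26, 39, 51 and 36 (0.48 and 0.44). On the lower side, 2 further body regions of Tnfrsf8 held 80, 122, 52 and 59 tags (−1.11 and −0.50) and 96, 127, 68 and 58 (−0.99 and −0.58), so lower and monocyte-only regions lay side by side in this gene. A Tnfsf10 region 5909 bp outside held 40, 58, 36 and 25 (−0.65 and −0.66), and a Tnfrsf14 region 523 bp outside held 73, 142, 75 and 63 (−0.45 and −0.62). The median log2 ratio of monocytes over CMP/GMP was 0.01 in WT over 49 regions and −0.06 in Cxcr3-/- over 58, against 0.02 and −0.13 over all locus regions. It was 0.31 and 0.22 over the 16 and 18 ligand regions (SD across regions 0.812 and 0.855). Over the 33 and 40 receptor regions it was −0.07 and −0.08 (SD 0.791 and 0.969). These ratios are relative to the bulk of regions, because scaling by background tags instead would move the median of all locus regions to 1.0 in WT and 0.31 in Cxcr3-/-.

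**Figure D3:**
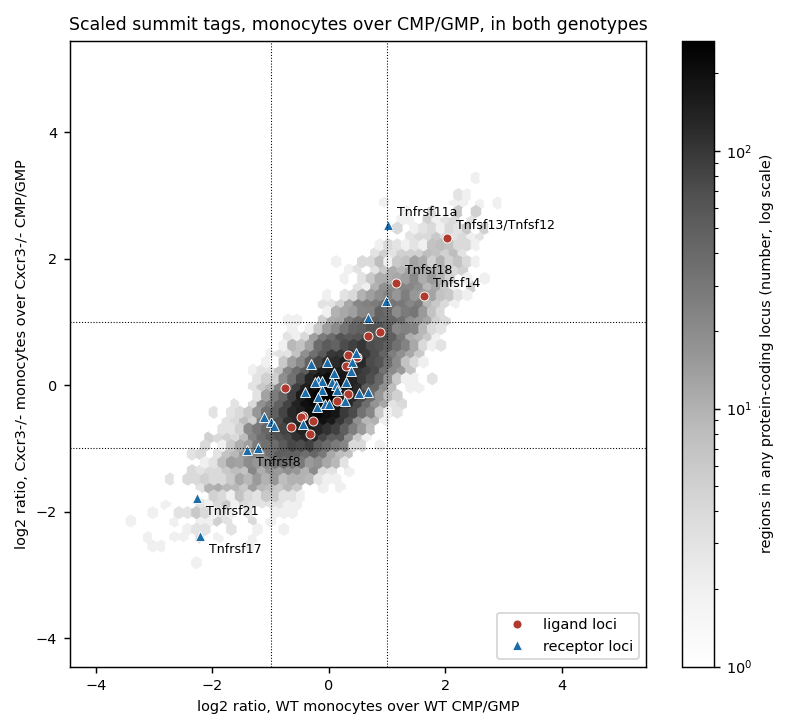
Log2 ratio of scaled summit tags, monocytes over CMP/GMP, in WT (horizontal) and Cxcr3-/- (vertical), for member regions (red circles, ligand loci; blue triangles, receptor loci) over all regions in protein-coding loci (grey, shaded by number on a log scale). The 7 labelled regions lie beyond the dotted 2-fold lines in both genotypes, 4 at the upper right and 3 at the lower left.

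The second comparison was Cxcr3-/- against WT within each cell type. No member region reached 2-fold in CMP/GMP, 0 of 56, where 0.114% of all locus regions were higher in Cxcr3-/- and 0.114% lower. None reached it in monocytes, 0 of 66, against a background of 0.222% higher and 0.448% lower. With 1 library per group no significance was computed by any tool. At these background shares less than 1 member region would be due, so the absence of calls says little. The median log2 ratio was 0.00 (SD across regions 0.245) in CMP/GMP and 0.04 (SD 0.316) in monocytes, against 0.06 (SD 0.296) and −0.02 (SD 0.355) over all locus regions.

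Among regions with a mean of at least 30 tags, those with a counting interval on 1 side of 0 were few. In CMP/GMP it lay wholly above 0 at 1 of 56 (background 2.83%) and wholly below at 0 (background 1.64%). The 1 was the highest region of Tnfrsf14 (chr4:154911121-154911680), with 76 tags in WT and 173 in Cxcr3-/- CMP/GMP and a log2 ratio of 0.48 (0.08 to 0.89). In monocytes it lay above 0 at 4 of 66 (background 5.49%) and below at 0 (background 4.97%). These 4 were the Tnfsf10 promoter, with 35 tags in WT and 46 in Cxcr3-/- (0.74, 0.07 to 1.41), 2 regions of Tnfrsf8 and 1 of Tnfrsf11a. The Tnfrsf8 regions held 108 and 133 tags (0.64, 0.26 to 1.02, chr4:145267475-145268151) and 142 and 149 (0.41, 0.07 to 0.75, chr4:145257810-145258446). The Tnfrsf11a region at chr1:105801152-105801610 held 63 and 71 (0.51, 0.0 to 1.03), with a lower bound that rounds to 0. In CMP/GMP the same region gave −0.99 (−1.98 to −0.03), but its mean of 20 tags lay under the minimum. By background tags the monocyte ratios of all locus regions would sit at a median of −0.38, so the upward monocyte values are relative to the bulk of regions. Receptor regions had a ratio above 0 at 28 of 43 in monocytes and ligand regions at 8 of 23, with medians of 0.09 and −0.14. Over all locus regions 47.9% were above 0 and the median was −0.02.

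The other extremes in each direction stayed within counting error. In CMP/GMP the Tnfrsf1a promoter was the highest (0.52, −0.12 to 1.21), followed by the CMP/GMP-only region of Tnfrsf1a (0.49). Then came a CMP/GMP-only region of Tnfrsf14 (0.39) and a Tnfrsf17 region 3322 bp outside (0.33). The region at the 1 end of Tnfsf12 was the lowest (34 and 40 tags, −0.47, −1.17 to 0.23). Regions of Tnfrsf21 (−0.43), Tnfrsf18 (−0.39), Tnfrsf22 (−0.34) and Tnfrsf8 (−0.3) followed it. In monocytes the Tnfsf9 region at chr17:57108742-57108933 was the lowest (−0.73, −1.58 to 0.07). A Tnfrsf21 body region of 53 and 28 tags (−0.58) and the Tnfrsf11a promoter (−0.51, −1.19 to 0.15) followed. Regions of Tnfsf18 (−0.42) and Tnfrsf19 (−0.41) came after these. On the upper side lay a Tnfrsf8 region 7017 bp outside, with 27 and 34 tags (0.67, −0.1 to 1.46). Body regions of Tnfsf18 (0.54) and Tnfrsf8 (0.52) were also high.

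**Figure D4:**
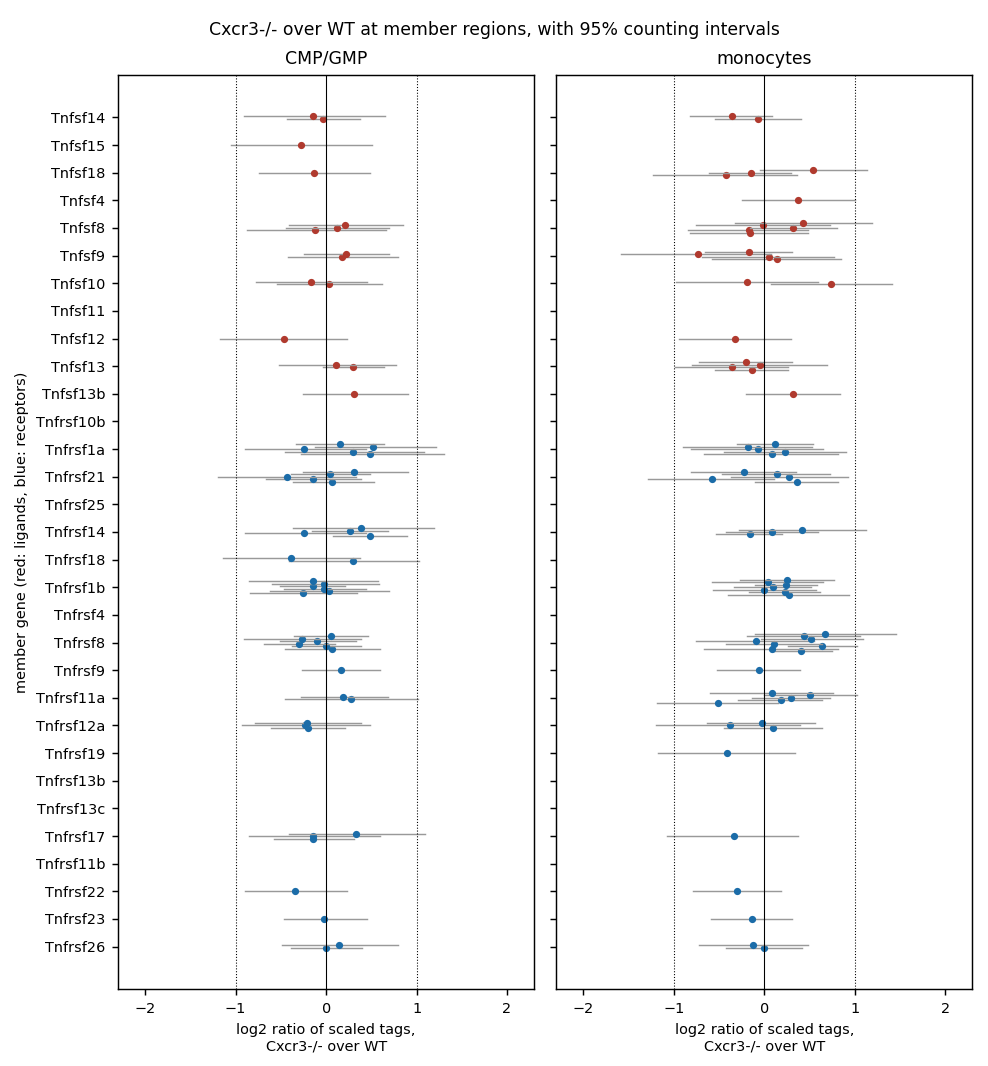
Log2 ratio of scaled tags, Cxcr3-/- over WT, at each member region with a mean of at least 30 tags, in CMP/GMP (left) and monocytes (right), with 95% counting intervals (grey lines; red, ligand loci; blue, receptor loci). No point lies beyond the dotted 2-fold lines, and most intervals span 0.

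Regions called in a single library numbered 41 (20.4% of member regions, 25.1% of all locus regions), of which 5 and 15 were in the WT and Cxcr3-/- progenitor libraries and 17 and 4 in the monocyte libraries. The 2 libraries with most such regions are those with the longer lists of their cell type. A further 2 regions (0.995%, against 0.503% of all locus regions) were called in both Cxcr3-/- libraries alone and 2 (0.995% against 0.749%) in both WT libraries alone. The latter included the promoter region of Tnfrsf14 (chr4:154928075-154928238), with 24 tags in WT CMP/GMP and 35 in WT monocytes, and the former a Tnfrsf11a body region with 18 and 12.

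Promoter windows, from 250 bases before to 50 after the start, were given for 24 of the 31 members in the RefSeq table. They were called in 14 of 24 for WT progenitors (background 53.1%), 18 for Cxcr3-/- progenitors (56.3%), 19 for WT monocytes (55.7%) and 17 for Cxcr3-/- monocytes (53.4%). Member promoters called in 1 to 3 libraries only made up 32.1% of the 28 windows of these genes, against 9.8% of all windows. In the 250 bases before the start, their median number of CpG pairs was 5, against 12 for all windows called in 1 to 3 libraries, and the 13 member windows called in all 4 had a median of 8 against 17. In both classes the member windows held fewer CpG pairs, whereas the 6 member windows called in no library had a median of 6.5 against 3. Of the short motifs searched in the same 250 bases on both strands, GAGGAA (PU.1) occurred in 32.1% of member windows against 22.2% of all, TGANTCA (AP-1) in 17.9% against 6.13% and GAAANNGAA (IRF) in 21.4% against 6.84%. GGGNNTTCC (NF-kB) occurred in 7.14% against 5.41%, TGTGGT (RUNX) in 10.7% against 12.4%, and TTGCNNAA (C/EBP) in 3.57% against 9.09%. In the order given, these shares rest on 9, 5, 6, 2, 3 and 1 of the 28 member windows, and the windows of Tnfsf13b overlap. A match describes the letters only.

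Genes around the family were read from lists, whose shares are to be set against the 13.8% monocyte-only and 6.68% CMP/GMP-only of all locus regions. The 15 family members outside the naming rule (Tnf, Lta, Ltb, Fas, Fasl, Cd40 and others) held 62 regions, of which 5 (8.06%) were monocyte-only and 8 (12.9%) CMP/GMP-only. Over all locus regions tested, 5.73% were at least 2-fold higher in monocytes in both genotypes and 3.26% at least 2-fold lower. In this list 1 of 8 regions tested was past 2-fold, higher in monocytes, at Cd40, a receptor of antigen-presenting cells. It (chr2:165055086-165055865) held 20, 27, 67 and 40 tags. The 26 adaptors and kinases held 165 regions, 25 (15.2%) monocyte-only and 6 (3.64%) CMP/GMP-only. Of 57 regions tested, 2 were past 2-fold, both higher in monocytes. They lay at Cflar, which encodes the caspase 8 inhibitor c-FLIP, and held 23, 30, 77 and 43 tags and 17, 23, 67 and 52. The 16 NF-kB subunits and inhibitors held 146 regions, 20 (13.7%) monocyte-only and 7 (4.79%) CMP/GMP-only. Of 50 regions tested, 2 were past 2-fold higher in monocytes, at Tnip3 (34, 58, 119 and 107 tags) and Bcl3 (18, 25, 61 and 35). Another 3 were past 2-fold lower, at Nfkb1 (46, 70, 14 and 9), Cyld (47, 56, 21 and 15) and Rel (39, 65, 26 and 21).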

How the data were processed

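Omni-ATAC-seq libraries of cultured mouse bone marrow cells were analysed, 1 for each combination of genotype (WT, Cxcr3-/-) and cell type (CMP/GMP, monocytes) in the titles. Per the submitters' processing notes, Trim Galore, Bowtie2 and SAMtools were used with mm10; no peak caller is named in them, and the labels mention sequencing in duplicate without saying whether runs were pooled. The deposited score of each interval was not used. The deposited fold is a ratio, given by the authors, of summit pileup over background, and the deposited −log10 p and −log10 q are the authors' values for the same summit.

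Whole tags were recovered from the deposited fold and −log10 p as the number that fits a Poisson background with 1 added tag. Within a tolerance of 0.001, only 0, 2, 1 and 0 intervals of the 4 lists (WT then Cxcr3-/- progenitors, WT then Cxcr3-/- monocytes) were not whole. Background density was 135, 194, 95.6 and 97.2 tags per 10 kb. Intervals of the 4 lists sharing 1 base were merged into regions, with the highest tags per library, and scaled by the medians over the 44591 regions called in all 4. Ratios needed a call in both libraries and a mean of at least 30 tags, and a call needed 2-fold, in both genotypes for the comparison of cell types. Intervals are exact 95% Clopper-Pearson. No test was run, since no group has replicates.

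Named were all monocyte-only and CMP/GMP-only regions, the 10 largest mean ratios of monocytes over CMP/GMP in each direction, the largest Cxcr3-/- to WT ratios, the highest region of each member, and list genes past 2-fold; regions with a counting interval on 1 side of 0 and the remaining single values were chosen after they were seen. The members and lists were chosen with earlier results of these data known. Motifs, planned for the regions, were searched in RefSeq promoter windows instead, since no genome sequence was used here. Scripts ran in Python 3.11.15 with numpy 2.4.6, pandas 2.3.3, scipy 1.17.1 and matplotlib 3.10.9, and were tested on simulated data. The alternatives were other thresholds, list lengths, flanks, scalings and tag minimums.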

Additional observations from a re-analysis of the deposited data

How the results depend on the processing

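No paired test was run: monocytes and CMP/GMP were compared within each genotype, as ratios. Flank size set the number of intervals. With 2 kb on either side the loci held 74, 89 and 92 in WT CMP/GMP, Cxcr3-/- CMP/GMP and Cxcr3-/- monocytes. With 50 kb they held 242, 287, 342 and 279 in the 4 libraries. At 50 kb 60 regions were monocyte-only (14.6%, background 14.0%) and 30 CMP/GMP-only (7.32%, background 6.94%). At least 2-fold lower in monocytes were 5 (background 3.58%). With a q of at most 0.001 there were 32 monocyte-only and 15 CMP/GMP-only regions (16.2% and 7.58%, background 14.1% and 6.7%), and with lists of equal length 28 and 16 (15.8% and 9.04%, background 12.9% and 10.9%), so the CMP/GMP-only share went from above the background to below it. The number of regions at least 2-fold higher in monocytes was 8 when scaled by background tags (background 16.7%). With a minimum of 60 tags it was 0 (background 3.07%), with 1 lower (background 1.05%). By the deposited fold it was 2 (background 2.31%), which kept the regions of Tnfsf12 with Tnfsf13 and of Tnfsf14. Background-tag scaling also gave 1 region at least 2-fold lower in Cxcr3-/- monocytes (background 4.45%). With no minimum 1 region was at least 2-fold higher in Cxcr3-/- CMP/GMP (background 0.167%). Scaling by the median ratio per region, added after the data were seen, gave 5 higher (background 7.19%) and 2 lower (background 2.51%) in monocytes. The cause of these differences was not tested. Of the 14 ratios of the 7 regions past 2-fold, 7 moved beyond their counting interval by background tags and 6 by the deposited fold, and none changed sign under these or the added scaling. At a median of 21 to 29 tags per summit, counting error limits what a single region can show.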
